A study of Sus scrofa with 6 samples.

Results

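CPS1, TAT, HPD, TDO2, AADAT, GPT2 and MAT1A are 7 genes of ammonia disposal and amino acid breakdown, and their messenger RNA was followed here through pig fat, liver and muscle. They were chosen by symbol, and all 7 were found among the 25322 Ensembl gene IDs counted, of which 11804 carry a symbol. The samples were fat, liver and muscle of Berkshire pigs and the same 3 tissues of Korean native pigs (Sus scrofa), with 1 RNA-seq library for each breed and tissue and 6 libraries in all. No treatment, age, sex or genotype beyond the breed name is given in the labels. It is not labelled how many animals were sampled or whether tissues of 1 breed came from 1 animal, so p-values measure only the spread among these libraries.

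Amino acids that are not built into protein lose their nitrogen by transamination, and the liver turns the released ammonia into urea. Their carbon skeletons are then oxidised or used for glucose, and several of the first steps, those of tyrosine, tryptophan and methionine among them, are textbook hepatocyte functions. Branched-chain amino acids are an exception in mammals, because their first transamination takes place largely outside the liver, in muscle among other tissues.

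Gene counts per library ran from 5897407 to 7912093. Levels are CPM (read counts relative to library size) scaled by TMM factors, and 3 counts, the limit that a count of 0 allows, correspond to 0.294 to 0.692 CPM depending on the library. CPM does not correct for transcript length, so levels are compared between libraries and not between genes. The labelled tissues carried their defining markers. The 8 hepatocyte markers summed to 221257 and 254935 CPM in the Berkshire and Korean native livers and to between 29.5 and 69.2 CPM in the other 4 libraries. Of the fat-cell markers, 4 of 7 were found by symbol and summed to 4416 and 3384 CPM in fat against at most 523 CPM elsewhere, and 7 of 8 muscle-fibre markers summed to 102687 and 153409 CPM in muscle against at most 121 CPM elsewhere. In bulk tissue, fewer cells of a type and less RNA per cell cannot be told apart.

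All 6 members that could be tested were far higher in liver than in fat or muscle. CPS1, TAT, HPD, TDO2 and MAT1A stood at 1346 CPM or more in both livers and at 1.15 CPM or less in every fat and muscle library. GPT2 was lower and unequal between the livers. AADAT had reads in the Korean native liver and none in the Berkshire liver, and it was not tested because too few libraries carried it. The 7 members together made up 0.892% of gene counts in Berkshire liver and 0.768% in Korean native liver, and they summed to between 1.18 and 3.66 CPM in fat and muscle.

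**Figure D1:**
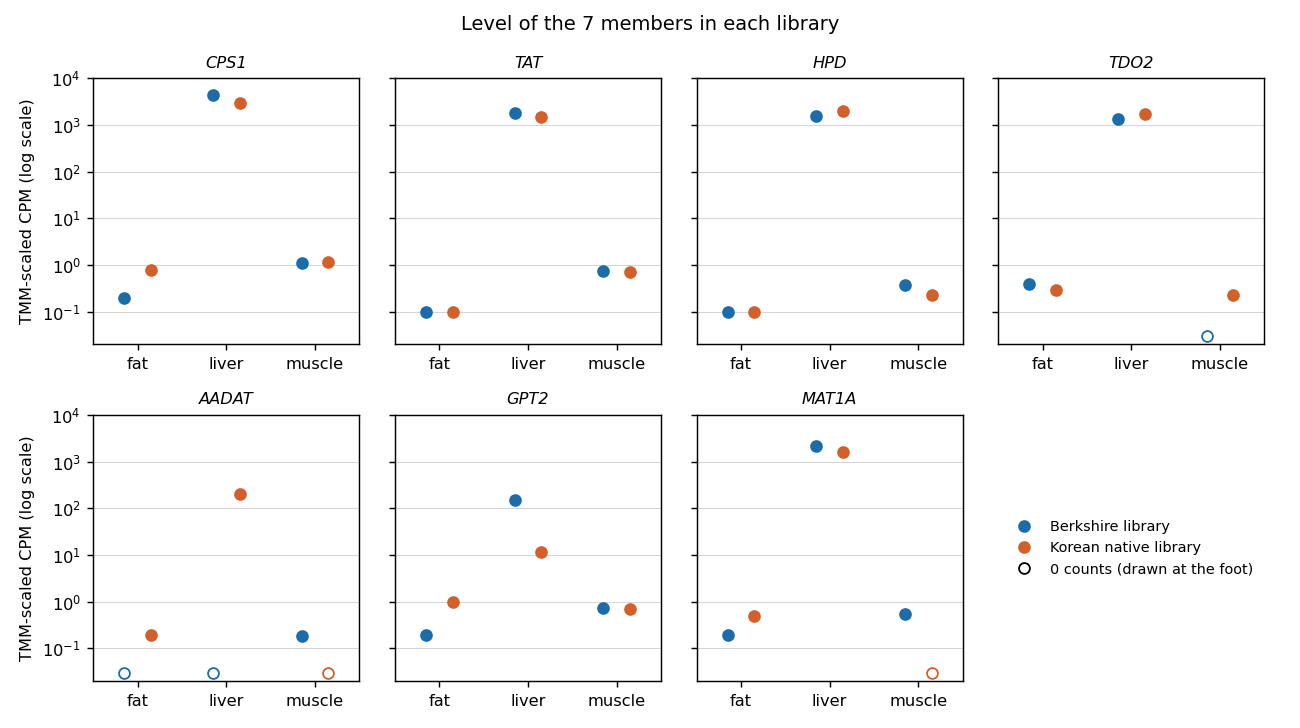
TMM-scaled CPM on a log axis for each of the 7 members, by tissue, with 1 point per library, blue for Berkshire and orange for Korean native. Open points at the foot have 0 counts. For 6 members both liver points lie above all 4 fat and muscle points, whereas the AADAT point of Berkshire liver is at 0 and that of Korean native liver at 203 CPM.

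CPS1 (ENSSSCG00000016159), the mitochondrial enzyme that joins ammonia and bicarbonate into carbamoyl phosphate and so opens the urea cycle, was at 4333 CPM in the Berkshire liver and 3033 CPM in the Korean native one. Fat held 0.196 and 0.789 CPM in the same breed order, and muscle 1.10 and 1.15 CPM. Both livers therefore lay far above the other 4 libraries, whose values came from 2 to 8 counts each. The mean was 3683 ± 920 CPM in liver (SD, n = 2). After scaling for library size, the counts summed over breeds were 7371-fold higher in liver than in fat (95% counting interval 4008 to 15373) and 3226-fold higher than in muscle (1803 to 6463). The edgeR log2 difference was 12.84 ± 0.80 (SE) against fat (adjusted p = 1.1e-04) and 11.66 ± 0.77 against muscle (adjusted p = 9.3e-05). With 1 library left out it ran from 11.96 (without Berkshire fat) to 14.21 (without Korean native fat) against fat, and from 10.92 (without Berkshire liver) to 12.32 (without Korean native liver) against muscle, and all were called.

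The rest of the urea cycle list followed the same tissues. All 9 genes tested were called higher in liver than in fat and 8 of 9 higher than in muscle. Over all genes tested, 15.2% were called higher in liver than in fat and 18.6% higher than in muscle. These shares also apply to the lists below. OTC, which joins carbamoyl phosphate to ornithine, had 843 and 1163 CPM in the Berkshire and Korean native livers and at most 1.15 CPM elsewhere. ASS1, which forms argininosuccinate, had 1718 and 1114 CPM in the livers and between 4.15 and 11.0 CPM elsewhere. ARG1, the liver arginase that releases urea, had 1364 and 807 CPM in the livers and at most 0.923 CPM elsewhere. ARG2, the mitochondrial arginase of many other tissues, was the exception against muscle (log2 difference -0.09 ± 0.87, adjusted p = 0.95). Its call against fat was lost without Berkshire fat, Berkshire liver or Korean native fat, where the adjusted p lay between 0.084 and 0.29.

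TAT (ENSSSCG00000002736) and HPD (ENSSSCG00000009805) are consecutive steps of tyrosine breakdown. TAT removes the amino group of tyrosine, and HPD turns the resulting 4-hydroxyphenylpyruvate into homogentisate. TAT had 1776 CPM in the Berkshire liver and 1481 CPM in the Korean native one. It had 1 count in each fat library, and 4 and 3 counts in Berkshire and Korean native muscle, or 0.732 and 0.692 CPM. HPD had 1560 and 1985 CPM in the Berkshire and Korean native livers, 1 count in each fat library, and 2 and 1 counts in muscle. Both genes thus stood at or near the counting floor outside liver. The log2 difference between liver and fat was 13.77 ± 0.60 for TAT and 13.89 ± 0.63 for HPD (edgeR adjusted p = 8.8e-05 for each).

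The neighbouring steps of the phenylalanine and tyrosine list were higher in liver as well, with 7 of 7 tested genes called against fat and 7 of 7 against muscle. HGD, which opens the ring of homogentisate, had 308 and 404 CPM in the Berkshire and Korean native livers and at most 0.196 CPM elsewhere. FAH, the last enzyme of the route, differed less, with 293 and 254 CPM in the livers, 128 and 79.2 CPM in fat, and 19.0 and 9.23 CPM in muscle. Its log2 difference from fat was 1.45 ± 0.33 (edgeR adjusted p = 0.018), a call lost without Berkshire fat, Korean native fat or Korean native liver (adjusted p of 0.095, 0.14 and 0.18).

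TDO2 (ENSSSCG00000008868), the hepatic dioxygenase that opens the ring of tryptophan and starts the kynurenine route, had 1346 CPM in the Berkshire liver and 1770 CPM in the Korean native one. Fat held 4 and 3 counts, or 0.392 and 0.296 CPM. Muscle held 0 counts in Berkshire and 1 count in Korean native. The tissues did not overlap, and the log2 difference was 12.06 ± 0.67 from fat (edgeR adjusted p = 9.1e-05) and 13.64 ± 0.76 from muscle (adjusted p = 7.5e-05). The only muscle count lay in Korean native, and without that library the fitted difference from muscle, 16.35, had no muscle count behind it. IDO1, which carries out the same reaction mainly in immune and other non-hepatic cells, stayed at 0.497 CPM or less in every library and was not tested.

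Further along the kynurenine route, KMO, which hydroxylates kynurenine, had 492 and 489 CPM in the Berkshire and Korean native livers and between 5.68 and 10.8 CPM elsewhere. KYNU, which cleaves kynurenines, had 106 and 102 CPM in the livers and between 0.923 and 6.01 CPM elsewhere. Of the 8 tested genes of the tryptophan list, TDO2 included, 6 were called higher in liver than in fat and 6 higher than in muscle. The 2 not called against fat were KYAT1 and KYAT3, both kynurenine aminotransferases. KYAT3 was even across tissues, from 72.2 to 127 CPM over the 6 libraries.

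AADAT (ENSSSCG00000009708) is the mitochondrial aminotransferase that makes kynurenic acid from kynurenine and also acts on 2-aminoadipate in lysine breakdown. It had 1226 counts (203 CPM) in Korean native liver and 0 counts in Berkshire liver. Berkshire fat had 0 counts, Korean native fat 2, Berkshire muscle 1 and Korean native muscle 0. All but 3 of its counts in the study therefore came from 1 library. The filter asks for reads in more libraries than that, so AADAT has no tissue or breed test in the model.

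MAT1A (ENSSSCG00000010337), the enzyme that makes S-adenosylmethionine from methionine in hepatocytes, had 2145 CPM in the Berkshire liver and 1593 CPM in the Korean native one. It had 0.196 and 0.493 CPM in fat, 0.549 CPM in Berkshire muscle and 0 counts in Korean native muscle. The log2 difference was 12.30 ± 0.84 from fat (edgeR adjusted p = 1.3e-04) and 12.54 ± 0.88 from muscle (adjusted p = 1.0e-04). Against fat it ran from 11.47 without Berkshire fat to 13.42 without Korean native fat. The 3 muscle counts all lay in Berkshire, and without that library the fitted difference from muscle, 16.58, had no muscle count behind it. MAT2A, the form of the enzyme made in most other tissues, ran from 129 to 257 CPM over the 6 libraries and was lowest in the livers. Its log2 difference between liver and fat, -0.68 ± 0.35, did not pass (adjusted p = 0.20). CTH, which makes cysteine from cystathionine, had 704 and 452 CPM in the Berkshire and Korean native livers and between 4.24 and 10.8 CPM elsewhere. The methionine and cysteine list had 9 tested genes, MAT1A included. Of these, 4 were called higher and 1 lower in liver than in fat, and 4 were not called. Against muscle 5 were called higher, 0 lower and 4 not called.

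GPT2 (ENSSSCG00000002847), the mitochondrial alanine aminotransferase that interconverts alanine and pyruvate, was the tested member with the smallest tissue difference and the widest spread. It had 155 CPM in the Berkshire liver and 11.8 CPM in the Korean native one (mean 83.3 ± 101, SD, n = 2). Fat had 0.196 and 0.986 CPM, and muscle 0.732 and 0.692 CPM. The 2 livers still lay above the other 4 libraries. The log2 difference was 6.33 ± 1.24 from fat (edgeR adjusted p = 0.0094) and 6.42 ± 1.30 from muscle (adjusted p = 0.0085). With 1 library left out the difference from fat ran from 3.88 (without Berkshire fat or Berkshire liver) to 9.24 (without Korean native fat), and that from muscle from 3.43 (without Berkshire liver) to 8.30 (without Korean native liver). The call against muscle was lost without Berkshire muscle (4.84, adjusted p = 0.091), and the others held. The cytosolic counterpart GPT matched no ID by symbol, so reads shared between the 2 genes could not be examined.

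Counted together, 6 of 6 tested members were called higher in liver than in fat, where 15.2% of the 13810 genes tested were called higher, and 6 of 6 higher than in muscle, where 18.6% were. The median log2 difference of the members was 12.57 from fat and 12.03 from muscle, beside 0.06 and -0.01 over all genes. The members passed the filter through the liver libraries, so those tested were bound to be higher there. The shares and medians over all genes are therefore given for scale only. Listed genes with few counts outside liver entered in the same way. Of the 92 other genes on the 9 amino acid lists, 73 were found and 70 tested. Among these, 50 were called higher and 3 lower in liver than in fat (13.5% of all genes were lower), with a median log2 difference of 2.95. Against muscle 55 were called higher and 2 lower (17.4% of all genes were lower), with a median of 3.48. Scaling by total counts instead of TMM moved the split over all genes, from 2100 higher of 3959 called in liver against fat to 1158 of 6955, where 41 of the 70 listed genes were called higher and 6 lower. It moved from 1374 higher of 2262 called in muscle against fat to 765 of 6020 in the same way.

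**Figure D2:**
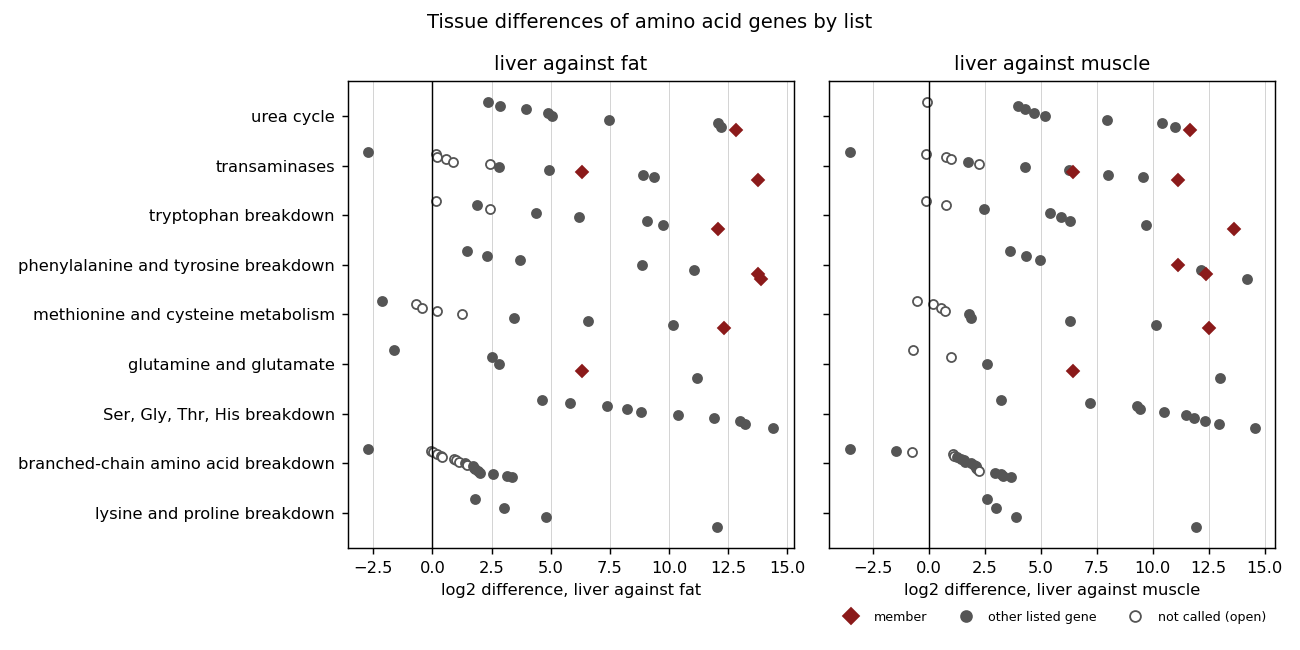
Log2 difference of each tested gene between liver and fat (left) and between liver and muscle (right) by amino acid list. Red diamonds are members, grey circles other listed genes, and open circles genes not called at an adjusted p under 0.05. A gene may stand on several lists. The members lie at 6.33 or above against fat, and the branched-chain list runs from -2.73 to 3.38.

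The lists were not alike. Serine, glycine, threonine and histidine breakdown had 10 of 10 tested genes called higher in liver against fat and against muscle. DMGDH, which demethylates dimethylglycine, had 608 and 655 CPM in the Berkshire and Korean native livers and at most 0.231 CPM elsewhere. UROC1, of histidine breakdown, had 400 and 390 CPM in the livers, 0 counts in both fat libraries and 3 counts in each muscle library. On the lysine and proline list, 4 of 4 tested genes were called higher in liver against each tissue, and ALDH7A1 lost its call against fat without Korean native fat (adjusted p = 0.063).

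Transaminases, glutamine enzymes and branched-chain genes were mixed, as was the methionine and cysteine list. Of 12 transaminases tested, TAT and GPT2 included, 6 were called higher and 1 lower in liver than in fat. The lower one was BCAT2, the mitochondrial branched-chain aminotransferase, with 14.0 and 7.46 CPM in the Berkshire and Korean native livers, 92.2 and 50.0 CPM in fat and 85.5 and 149 CPM in muscle. Its log2 difference in liver was -2.73 ± 0.50 from fat (edgeR adjusted p = 0.0072) and -3.53 ± 0.52 from muscle (adjusted p = 0.0023). The members and BCAT2 thus lay on opposite sides of 0 in both contrasts. GLS2, the glutaminase known as the liver-type form, had 116 and 192 CPM in the livers and at most 0.0986 CPM elsewhere. CSAD, of the methionine and cysteine list, makes hypotaurine on the way to taurine. It was also called lower in liver than in fat (log2 difference -2.12 ± 0.34, edgeR adjusted p = 0.0042).

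Branched-chain amino acid breakdown had 9 of 19 tested genes called higher in liver than in fat, and this count fell to 3 without Korean native fat and to 4 under scaling by total counts. Against muscle, 13 of 19 were called higher in liver and 2 lower, with a median log2 difference of 1.89. Scaling by total counts also gave 13 higher and 2 lower. ACADSB, which acts in isoleucine breakdown, had 1334 and 1870 CPM in the Berkshire and Korean native livers and between 97.9 and 159 CPM elsewhere. BCKDK, the kinase that switches off the branched-chain ketoacid dehydrogenase, was the second gene called lower in liver than in muscle (log2 difference -1.45 ± 0.38, edgeR adjusted p = 0.023). That call was lost without Korean native liver or Korean native muscle (adjusted p of 0.22 and 0.097).

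Outside liver the members had too few counts for fat and muscle to be compared closely, with 0 to 10 counts in any of the 4 libraries. They entered the test through liver. None of the 6 tested was called higher or lower in muscle than in fat by edgeR, and 1 passed at an unadjusted p under 0.05. Over all genes 9.95% were called higher in muscle and 6.43% lower. TAT came nearest, with a log2 difference of 2.64 ± 0.74 (adjusted p = 0.052) that rests on 7 counts in muscle and 2 in fat, and its 2 muscle values lay above its 2 fat values. It was called by limma-voom (adjusted p = 0.046) and by a model of tissue alone (adjusted p = 0.041). The fat and muscle values of the 5 members most abundant in liver were between 0 and 0.0467% of the liver level of the same breed. ALB, the most abundant hepatocyte marker, was at 0.0117% and 0.0145% of its liver level in Berkshire and Korean native fat, and at 0.0287% and 0.0247% in muscle. All 8 hepatocyte markers had a positive muscle minus fat difference, with a median log2 value of 0.98 and none called. Their part in the low counts of the members outside liver was not tested.

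Among the 70 other amino acid genes, 4 were called higher in muscle than in fat and 7 lower. The higher ones were GOT1, AHCY, UROC1 and BCKDK. The UROC1 call rests on 3 counts in each muscle library and 0 counts in both fat libraries. UROC1 entered the test through liver, as the members did. None of the 70 was called higher without Berkshire fat, without Korean native fat or without Korean native muscle, and under scaling by total counts 1 was called higher and 31 lower. GOT1, the cytosolic aspartate aminotransferase, had 87.3 and 171 CPM in Berkshire and Korean native muscle and 38.7 and 35.7 CPM in fat. FAH, PCBD1, PSAT1, CSAD, SLC25A13, MCCC2 and ALDH7A1 were the lower ones. PSAT1, of serine synthesis, had 11.3 and 4.38 CPM in muscle against 85.7 and 136 CPM in fat, a log2 difference of -3.72 ± 0.60 (edgeR adjusted p = 0.0087). The SLC25A13 call was lost without Berkshire fat, Korean native fat or Korean native muscle (adjusted p between 0.098 and 0.12), and those of MCCC2 and ALDH7A1 were lost whichever library was left out.

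The second question was whether the breeds differ. Over tissues, none of the 6 tested members was called by edgeR, and none reached an unadjusted p under 0.05. Over all genes 0.109% were called, which is 15 of 13810, with 1103 at an unadjusted p under 0.05. None of the 70 other amino acid genes was called, and 10 had an unadjusted p under 0.05. GPT2 had the largest difference among the tested members, -1.88 ± 1.13 for Korean native minus Berkshire (log2, adjusted p = 0.74). This model assumes the same breed difference in every tissue, and the members have few counts outside liver.

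Within liver, each breed has 1 library, so ratios have no test and their intervals cover counting error only. The 5 abundant members differed by less than 1.5-fold between the livers. CPS1 was 1.43-fold (1.40 to 1.46) higher in Berkshire liver, MAT1A 1.35-fold (1.31 to 1.38) and TAT 1.20-fold (1.16 to 1.24). HPD was 1.27-fold (1.24 to 1.31) and TDO2 1.31-fold (1.28 to 1.36) higher in Korean native liver. The hepatocyte markers spanned a like range between the same libraries, with log2 ratios of Korean native over Berkshire from -0.57 to 0.38 and a median of 0.00. Neither liver was therefore higher for all of the abundant members.

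GPT2 and AADAT stood apart, and in opposite directions. GPT2 was 13.2-fold (10.3 to 17.0) higher in Berkshire liver, with 774 counts against 71. AADAT was higher in Korean native liver, by at least 338-fold taking 3 counts as the limit for Berkshire liver, and the exact two-sided 95% counting interval of that ratio begins lower, at 275-fold. Of 7 members with at least 10 CPM in 1 of the livers, 1 was at least 2-fold higher in Korean native and 1 at least 2-fold lower, where 5.76% and 5.53% of all genes were. For orientation along the genome, the neighbours of both genes in RefSeq order (Sscrofa11.1) were looked up after these values were seen. MFAP3L, beside AADAT, had 7.80 CPM in the Berkshire liver and 15.7 CPM in the Korean native one. GALNTL6, on the other side, had 0 counts in every library, and GALNT7, beyond it, had 6.80 and 5.47 CPM. DNAJA2, beside GPT2, had 76.4 and 72.9 CPM in the same breed order, and NETO2, beyond it, had 3 and 1 counts. The genes on the other side of GPT2 matched no ID by symbol. MFAP3L was thus higher in Korean native liver, the direction of AADAT, and GALNT7 was lower there. DNAJA2 was slightly lower in Korean native liver, the direction of GPT2. Any part of the genome region in these ratios was not tested.

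**Figure D3:**
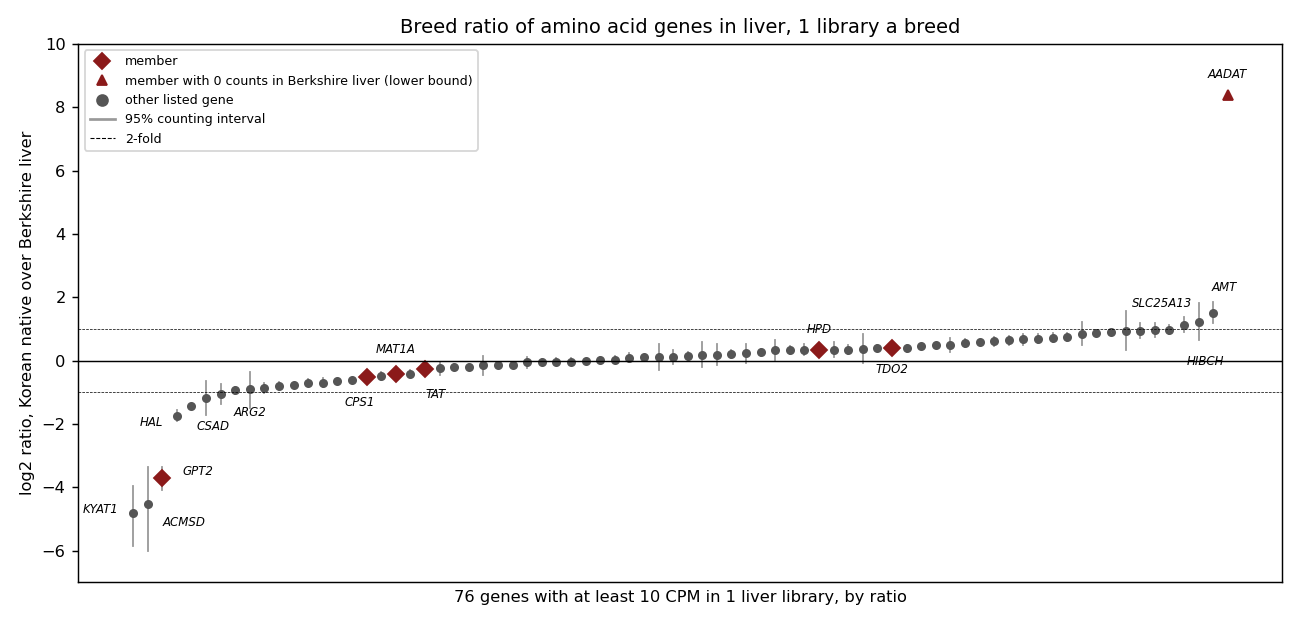
Log2 ratio of Korean native over Berkshire liver for the 76 amino acid genes with at least 10 CPM in 1 liver library, ordered by ratio. Red marks are members, grey circles other listed genes, vertical lines 95% counting intervals and dashed lines 2-fold. AADAT is a lower bound because Berkshire liver had 0 counts. The 5 abundant members lie within the 2-fold lines, GPT2 lies below them and AADAT above.

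Among the 69 other amino acid genes with at least 10 CPM in 1 liver library, 3 were at least 2-fold higher in Korean native liver and 6 at least 2-fold lower, and the median log2 ratio was 0.14 (0.00 over all genes). Those named here were chosen after their values were seen. SLC25A13, the mitochondrial aspartate and glutamate carrier, AMT, of the glycine cleavage system, and HIBCH, of valine breakdown, were the higher ones. KYAT1, ACMSD, HAL, CSAD and ARG2 were among the lower ones. HAL, which deaminates histidine, had 219 CPM in the Berkshire liver and 66.0 CPM in the Korean native one.

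The kynurenine aminotransferases were divided between the livers. KYAT1 had 51.6 CPM in the Berkshire liver and 1.82 CPM in the Korean native one, 28.3-fold (15.6 to 57.4) higher in Berkshire. AADAT had the reverse order, with 0 and 203 CPM. KYAT3 had 72.2 and 115 CPM. KYAT1 was not low throughout Korean native pigs, since its fat and muscle libraries held 3.85 and 12.7 CPM beside 3.13 and 8.42 CPM in Berkshire. ACMSD, which diverts the route away from quinolinate and NAD synthesis, had 23.0 CPM in the Berkshire liver and 0.994 CPM in the Korean native one, 23.1-fold (10.3 to 64.4) higher in Berkshire. TDO2, KMO and KYNU, the steps above, were within 1.5-fold between the livers.

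**Figure D4:**
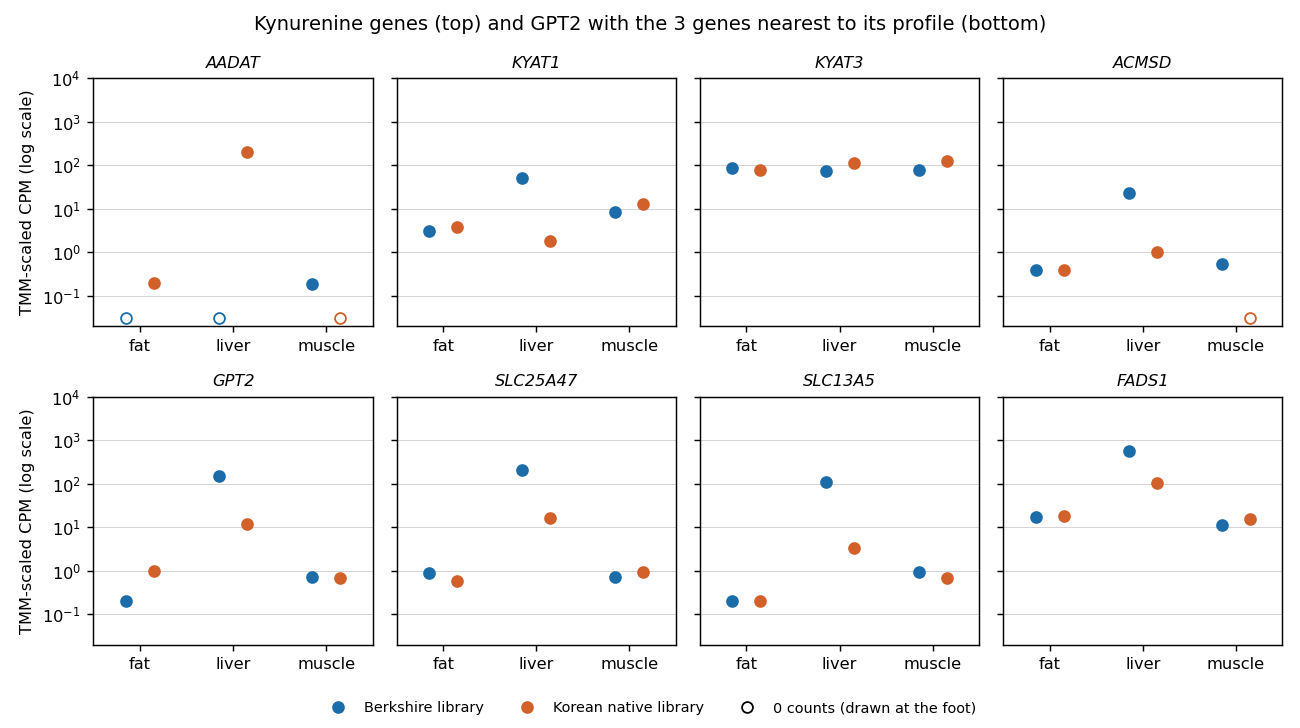
TMM-scaled CPM on a log axis by tissue, with 1 point per library, blue for Berkshire and orange for Korean native, and open points for 0 counts. The upper row shows AADAT, KYAT1, KYAT3 and ACMSD, and the lower row GPT2 with the 3 genes nearest to it in profile. In liver, AADAT is higher in Korean native, KYAT1 and ACMSD are higher in Berkshire, and GPT2, SLC25A47, SLC13A5 and FADS1 are all higher in Berkshire.

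In fat and muscle no member reached 10 CPM, so no breed ratio is given for them there. Of 36 other amino acid genes that did in fat, 0 were at least 2-fold higher in Korean native and 3 lower (4.15% and 3.42% of all genes), namely MTR, IVD and ALDH6A1. The fat libraries also differed in markers. Of 4 fat-cell markers found, 2 were at least 2-fold lower in Korean native fat (median log2 ratio -0.93), LIPE with 501 CPM against 1035 CPM. The 3 macrophage markers with at least 10 CPM were higher there (median 0.96), and the 4 fibroblast markers with at least 10 CPM had a median of 0.41. Their part in the fat ratios was not tested. In muscle 4 of 36 were higher and 6 lower (11.0% and 9.34% of all genes). ARG2 had the widest of these ratios, with 10.6 CPM in Berkshire muscle and 75.4 CPM in Korean native muscle, 7.10-fold (5.36 to 9.56) higher in Korean native. MTR, the methionine synthase, was lower in Korean native fat (117 against 283 CPM) and muscle (83.5 against 232 CPM) but not in liver (212 against 182 CPM). The muscle libraries differed in stromal, fat-cell and macrophage markers. The 5 fibroblast markers found summed to 20569 CPM in Berkshire muscle and 4490 CPM in Korean native muscle. COL3A1 made up most of each sum, with 14585 and 2773 CPM. Of the 4 with at least 10 CPM, 3 were lower in Korean native muscle, 2 of them at least 2-fold (median log2 ratio -1.70). PDGFRB was slightly higher there (log2 ratio 0.19). Of 4 fat-cell markers, 3 were at least 2-fold lower in Korean native muscle (median log2 ratio -2.15), PLIN1 with 18.9 CPM against 95.7 CPM. The 3 macrophage markers with at least 10 CPM were lower there too (median -1.37). Their part in the muscle ratios was not tested.

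Of 6 transcription regulators of liver amino acid genes that were found, 0 were at least 2-fold apart between the livers. HNF4A, a nuclear receptor of hepatocytes, had 949 and 811 CPM in the Berkshire and Korean native livers and at most 0.394 CPM elsewhere. NR3C1, the glucocorticoid receptor, for which TAT is a classic target in rat liver, ran from 41.0 to 87.9 CPM over all 6 libraries, and its log2 difference between liver and fat was -0.09 ± 0.29 (edgeR adjusted p = 0.85). Genes known as zoned along the mouse liver lobule were uneven. Of 8 periportal genes found, CPS1 included, 2 were at least 2-fold lower in Korean native liver and 0 higher. Of 6 pericentral genes with at least 10 CPM, 2 were at least 2-fold lower and 0 higher. Over all genes with at least 10 CPM in 1 liver library, 5.53% were lower and 5.76% higher by this rule. PCK1, of glucose synthesis, had 2339 CPM in the Berkshire liver and 294 CPM in the Korean native one. Its difference was not confined to liver. Berkshire and Korean native fat had 78.3 and 6.90 CPM, and muscle 6.04 and 0.692 CPM. Over tissues, PCK1 was called lower in Korean native by edgeR. CYP2E1, a pericentral cytochrome, had 5397 and 7.13 CPM in the Berkshire and Korean native livers. The part of such differences between the 2 livers in the GPT2 and AADAT ratios was not tested.

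The profile of each member over the 6 libraries was set beside those of 7370 genes with a symbol, by the root mean square distance of centred log2(CPM + 1) values. The nearest genes to the 5 abundant members were mostly those of plasma proteins. TF, FGG and FGB were nearest to CPS1 (distances 0.21 to 0.29), AHSG, SERPINC1 and C8A to TAT (0.22 to 0.25), and TTR, KNG1 and SERPINC1 to HPD (0.09 to 0.23). TTR, HPX and C8A were nearest to TDO2 (0.21 to 0.26), and CP, TTR and HPD itself to MAT1A (0.27 to 0.31). With liver so far above the rest, these distances reflect mainly the height of the liver level and its breed ratio.

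GPT2 had other company. SLC25A47, a mitochondrial carrier of liver, was nearest (distance 0.32), with 204 CPM in the Berkshire liver and 16.6 CPM in the Korean native one. SLC13A5, a citrate transporter, had 110 and 3.31 CPM (0.59), and FADS1, a fatty acid desaturase, 555 and 102 CPM (0.63). All 3 were higher in Berkshire liver, as the measure of likeness requires. No gene lay as near to AADAT. MORC1 was the nearest (0.65), with 56.5 CPM in Korean native liver and 0 counts in the other 5 libraries, followed by PAQR7 (0.92) with 92.0 CPM in that library and ADAD1 (1.05) with 27.2 CPM. MORC1 and ADAD1 are known from male germ cells in mouse.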

How the data were processed

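The deposited files hold unnormalised read counts, 1 value per Ensembl ID, for 6 pig tissue libraries. Per the submitters' processing notes, the authors used TopHat, HTSeq 0.5.3p3 and the Sscrofa10.2 build. How strand and overlaps were handled and which annotation release was used is not given in the sources used here. Antisense or overlapping genes therefore cannot be separated. The 5 closing entries that name no gene, 64.7% to 67.4% of each file's total, were left out. Symbols came from the supplied table of gene names. No sequence or coordinate is printed, since the tables used are of another build.

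A model with additive terms for tissue and breed was fitted to the 6 libraries together (edgeR 4.0.16 in R 4.3.3, TMM, filterByExpr, quasi-likelihood test, two-sided). It covered 13810 genes with 2 residual degrees of freedom and a biological coefficient of variation of 29.5%. Adjusted p-values are Benjamini-Hochberg over all genes, and a gene was called under 0.05. SEs were derived by dividing the absolute log2 value by the root of its F statistic. AADAT did not pass the filter. Breed ratios within a tissue compare 1 library with 1 library, have no test and use a prior count of 2 for the 2-fold rule and for log2 ratios. Fold values printed with an interval are plain CPM ratios, with exact 95% intervals for counting error. Reads without molecular identifiers are not independent molecules. The script was tested on simulated counts.

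Members and lists were chosen with earlier results of these data known. By rule, the text names all members, up to 4 abundant liver genes per list, genes at least 4-fold apart between the livers, tested genes not called higher in liver than in fat, the 3 genes nearest in profile, and markers. Other genes were named after their values were seen, and some listed genes are not reported here. Alternatives were DESeq2 1.42.0, limma-voom (limma 3.58.1), other scalings, filters, prior counts, covariates and leaving out each library.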

Additional observations from a re-analysis of the deposited data

Results flagged for a closer look

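ARG2, the mitochondrial arginase, had opposite breed ratios in 2 tissues. The log2 ratio of Korean native over Berkshire was -1.05 in liver and 2.80 in muscle. Liver held 45.2 CPM in Berkshire and 21.7 CPM in Korean native, and muscle 10.6 and 75.4 CPM. The difference between the tissues was not tested, since each breed and tissue has 1 library.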

How the results depend on the processing

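With 2 libraries a tissue and 1 a breed and tissue, the model sees only large differences, and counts under about 10 set the values of the members outside liver. The calls of the 6 tested members in liver against fat and against muscle held under every alternative run except that of GPT2 against muscle without Berkshire muscle. Called higher in muscle than in fat was 1 member with limma-voom and 1 with tissue alone, beside 0. Of the other amino acid genes, 4 were called higher in muscle, 1 under scaling by total counts, and 0 to 6 with a library left out. Scaling by total counts moved the median of all genes to -0.94 in liver against fat, -0.09 in liver against muscle and -0.98 in muscle against fat. Over tissues, 1 member was called between breeds without a filter (AADAT, then tested), and 0 to 1 with a library left out. A model of breed alone kept no member, so it gave no value. Among values that were not called, the sign of some members turned. The log2 difference of GPT2 in muscle against fat was -0.09, and it was 0.089 with DESeq2, 0.73 with limma-voom, 0.27 with tissue alone and from -2.64 to 2.72 with a library left out. That of MAT1A was -0.23, and from -4.36 to 0.82 with a library left out. Between breeds over tissues, CPS1 was at 0.09, at -0.022 under total counts, at -0.15 with limma-voom and from -0.35 to 0.89 with a library left out. HPD was at 0.21 and GPT2 at -1.88, and with a library left out they ran from -0.34 to 0.32 and from -3.14 to 1.15. Of the other amino acid genes, 3 were at least 2-fold apart in fat, 6 under total counts and 7 with at least 1 CPM. At 4-fold there were 0 in fat, 2 in liver (9 at 2-fold) and 1 in muscle (10 at 2-fold), and 6 in muscle under total counts. The cause of these changes was not tested. The breed term of the model already sets each tissue beside the others of the same breed, and tissue alone is the model without it.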

Other observations

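Genes that the transcription factor ATF4 is known to induce when amino acids run short were followed as a further list, of which 8 of 14 were found and GPT2 is one. In liver against fat, 3 of 7 tested were called higher and 2 lower by edgeR, where 15.2% and 13.5% of all genes were. PHGDH, the first enzyme of serine synthesis, had 59.4 and 125 CPM in the Berkshire and Korean native livers and 7.84 and 23.9 CPM in fat (log2 difference 2.63 ± 0.34, adjusted p = 0.0017). ASNS, which makes asparagine, was lower in liver, with 3.60 and 2.98 CPM against 14.8 and 15.1 CPM in fat (log2 difference -2.20 ± 0.60, adjusted p = 0.032), and PSPH, the last enzyme of serine synthesis, had 0 and 3.98 CPM in the livers against 9.50 and 42.1 CPM in fat. Between breeds over tissues, 0 of 7 were called, and 2 had an unadjusted p under 0.05. Over all 13810 genes tested, 15 were called and 1103 had an unadjusted p under 0.05. Between the livers, 4 listed genes had at least 10 CPM in 1 library, GPT2 included. Of these, 2 were higher in Korean native liver and 2 lower, beside 4194 and 4163 of 8357 genes. GPT2 was lower in Korean native liver, while PHGDH and PSAT1 were higher there, PSAT1 with 222 CPM against 112 CPM, and SESN2 had 23.5 and 23.6 CPM. In fat, 4 of 4 listed genes with at least 10 CPM were higher in Korean native, where 4130 of 7994 genes were. Of the 4, 2 were at least 2-fold higher, and the median log2 ratio was 1.12. In muscle 2 listed genes had at least 10 CPM, and 1 was higher in Korean native and 1 lower. ASNS had 13.7 CPM in Berkshire muscle and 55.1 CPM in Korean native muscle. These ratios within a tissue have 1 library a side and no test. The part of ATF4 in them was not tested.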
